A study of Mus musculus with 15 samples.

Results

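Collagen genes were examined in tissue from the apex of the heart of 15 male mice, with 5 mice and 5 whole-genome expression arrays for each of 3 strain labels. The members were all annotated genes whose symbol is Col, a number, the letter a and a number, which gave 42 of the 18190 genes with an annotated symbol. Of these, 11 encode chains of fibrillar collagens, 8 chains of basement membrane collagens and 23 chains of other types. C3H mice (C3H/HeJ) and C57Bl/6 mice (C57BL/6J) are inbred, and B6C3F1 mice (B6C3F1/J) are the F1 cross of both. All 15 mice, including those that serve as the comparison group here, carried a radiotelemetry transmitter placed in the abdomen at 7 weeks of age under tribromoethanol at 250 mg/kg. They had no other treatment, were killed with CO2 after another 2 to 2.5 weeks, and were 9 to 10 weeks old. A piece of apex of 10 to 18 mg gave the RNA, and 50 ng of total RNA entered a 2-cycle amplification that works from the 3′ end of the transcript. No group without surgery was among the samples, so all levels are those of hearts of recently operated mice. The numbers in the sample titles fall into a separate range for each strain, and the labels do not say what they stand for.

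Collagens are built from 3 chains that wind into a triple helix. Chains of the fibrillar class are secreted as procollagens, trimmed at their ends and assembled into fibrils, which in the heart are made mainly by fibroblasts and carry the load of the contracting wall. Type IV collagen forms the mesh of the basement membrane around cardiomyocytes and capillaries, and types XV and XVIII sit at or near that membrane. Type VI collagen forms beaded filaments between the basement membrane and the fibrils.

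Each gene is given by its brightest probe set, as log2(signal + 16), where signal is the scaled array intensity. These log2 values can be compared between mice for 1 gene and not between genes. Of the 42 members, 26 had a mean above the dim limit of 5.74 used for all genes (7 fibrillar, 7 basement membrane and 12 other) and were tested among 13111 genes. The member just above that limit was Col13a1, with a mean of 5.82, and the member just below was Col26a1, with 5.73. The 16 dim members were the fibrillar Col2a1, Col11a1, Col11a2 and Col24a1, the basement membrane Col4a6, and Col6a5, Col8a2, Col9a1, Col9a2, Col9a3, Col10a1, Col12a1, Col17a1, Col19a1, Col25a1 and Col26a1. Among these, Col2a1 and Col9a1 are known as chains of cartilage collagens, and Col17a1 belongs to the attachment plaque of the epidermis.

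The label of heart muscle was checked on cardiomyocyte genes: Myh6, the atrial and adult mouse ventricular myosin heavy chain, averaged 16.02, and Tnnt2, cardiac troponin T, averaged 16.19. None of 7 cardiomyocyte markers passed the test between strains. Every array had been scaled to nearly the same mean signal, from 500.257 to 500.276 after trimming 2% of probe sets at each end. Bacterial poly-A control transcripts, which are added to the RNA as a check on labelling, averaged 9.19 ± 0.65 in C3H, 8.54 ± 0.12 in B6C3F1 and 8.58 ± 0.59 in C57Bl/6 (log2, SD, n = 5). C3H replicate 4 stood highest with 10.34 and C57Bl/6 replicate 5 lowest with 7.58. The log2 ratio of the Gapdh 3′ to 5′ control probe sets, a measure of RNA integrity and labelling length, averaged 0.60 ± 0.26 for the C3H mice, 0.90 ± 0.21 for B6C3F1 and 0.85 ± 0.24 for C57Bl/6 (SD, n = 5).

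Sequence just upstream of the annotated starts is shown for genes on which the results below turn: the Col1a2 and Col3a1 fibril chains, whose signals varied together between mice, and Col5a3 and Col15a1, which differed between strains. The 250 bases before the start are from RefSeq (build GRCm38.p6), written 5′ to 3′ along the gene. Capitals mark matches, on either strand, to the letters CCAAT (reverse ATTGG) of the CCAAT box, GGGCGG (reverse CCGCCC) of the GC box, and TATAAA (reverse TTTATA) of the TATA box. A match is one of letters alone, at any distance from the start. These motifs do not overlap in the sequences printed.
Col1a2, chr6:4505368-4505617, plus strand: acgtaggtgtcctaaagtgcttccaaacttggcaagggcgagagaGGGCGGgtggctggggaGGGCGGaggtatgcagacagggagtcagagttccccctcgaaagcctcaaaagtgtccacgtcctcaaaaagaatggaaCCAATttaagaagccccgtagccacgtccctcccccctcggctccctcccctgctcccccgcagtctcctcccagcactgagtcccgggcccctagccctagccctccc
Col3a1, chr1:45311288-45311537, plus strand: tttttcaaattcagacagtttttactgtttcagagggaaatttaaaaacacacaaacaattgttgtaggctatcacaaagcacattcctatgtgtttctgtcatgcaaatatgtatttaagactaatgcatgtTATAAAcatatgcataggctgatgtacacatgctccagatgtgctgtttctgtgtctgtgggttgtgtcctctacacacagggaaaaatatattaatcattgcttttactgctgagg
Col5a3, chr9:20815068-20815317, minus strand: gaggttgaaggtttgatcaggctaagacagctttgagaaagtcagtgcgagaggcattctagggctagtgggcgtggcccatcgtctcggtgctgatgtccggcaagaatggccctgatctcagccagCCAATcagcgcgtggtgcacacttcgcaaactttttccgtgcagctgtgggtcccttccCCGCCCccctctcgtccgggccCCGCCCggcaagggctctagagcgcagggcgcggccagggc
Col15a1, chr4:47207762-47208011, plus strand: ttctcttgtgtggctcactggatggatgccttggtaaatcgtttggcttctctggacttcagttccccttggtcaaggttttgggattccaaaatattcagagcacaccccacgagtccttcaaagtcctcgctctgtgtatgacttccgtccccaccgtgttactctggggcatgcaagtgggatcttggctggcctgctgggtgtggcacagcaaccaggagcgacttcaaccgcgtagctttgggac
The Col1a2 stretch holds 1 CCAAT and 2 GGGCGG matches, the Col3a1 stretch 1 TATAAA match, the Col5a3 stretch 1 CCAAT and 2 GGGCGG matches, and the Col15a1 stretch none of these letters. Col4a1 and Col4a2 lie head to head, are read in opposite directions, and have annotated starts 21 bases apart. Col4a1 is read downward from 11312826 and Col4a2 upward from 11312805, so their annotated 5′ ends overlap. Unlike the stretches above, the bases between these starts thus lie after both starts. The 22 bases from 1 start to the other, shown because both genes share them, carry 1 GGGCGG match.
Col4a1 and Col4a2, chr8:11312805-11312826, plus strand: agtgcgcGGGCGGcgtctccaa
Windows of 300 bases (250 before and 50 after the start) were available for 33 of the 42 members, in 36 windows. GGGCGG was in 61.1% of these windows and in 35.7% of all 32851 promoter windows of that length. For CCAAT the shares were 36.1% and 37.4%, and for TATAAA 13.9% and 13.6%. The matches describe the letters and were not tied to the signals.

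By their brightest probe sets, fibril chains Col3a1 and Col1a1 spanned more between mice of 1 inbred strain than between strain means, and little between B6C3F1 mice. Col3a1, the chain of type III collagen, was at 10.97, 13.38, 11.81, 10.78 and 13.95 in C3H replicates 1 to 5, at 13.15, 13.37, 13.62, 13.44 and 13.81 in B6C3F1 and at 11.67, 13.25, 13.20, 12.06 and 13.62 in C57Bl/6. The 5 C3H mice thus spanned 9.01-fold and the 5 C57Bl/6 mice 3.87-fold, while the 5 B6C3F1 mice lay within 1.57-fold of each other. C3H replicates 2 and 5 were as high as the B6C3F1 mice, and C3H replicates 1, 3 and 4 were lower than every B6C3F1 mouse. Strain means were 12.18 ± 1.43, 13.48 ± 0.25 and 12.76 ± 0.85 (SD, n = 5) in C3H, B6C3F1 and C57Bl/6. The difference between B6C3F1 and C3H of 1.30 ± 0.48 (SE) did not pass the test (limma adjusted p = 0.128).

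Col1a1, which encodes the α1 chain of type I collagen, the main fibril of the heart, was at 6.76, 7.85, 6.79, 7.17 and 9.19 in C3H, at 8.76, 8.93, 8.84, 8.96 and 8.79 in B6C3F1 and at 6.55, 9.01, 8.19, 7.87 and 8.67 in C57Bl/6. Again the F1 mice were within 1.15-fold of each other, and the inbred mice spanned 5.39-fold in C3H and 5.49-fold in C57Bl/6. Among the C3H mice replicate 5 alone was as high as the B6C3F1 mice. Col1a1 was 1.31 ± 0.41 (SE) higher in B6C3F1 than in C3H, which missed the threshold (limma adjusted p = 0.0676). Without C3H replicate 5 this difference was 1.72 (adjusted p = 0.00378), and without C57Bl/6 replicate 1, which changes only the shared spread, it was 1.31 (adjusted p = 0.0288). Col1a2, the α2 chain of the same molecule, averaged 11.82 ± 0.56 in C3H, 11.95 ± 0.33 in B6C3F1 and 11.74 ± 0.48 in C57Bl/6 (SD, n = 5), and its groups overlapped. The B6C3F1 minus C3H difference of Col1a2 was 0.13, with a 95% interval from -0.38 to 0.63. A dimmer Col1a2 probe set gave 0.65 ± 0.33 (SE) for the same contrast (limma adjusted p = 0.306 over all probe sets), so the size of the Col1a2 difference depends on the probe set.

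**Figure D1:**
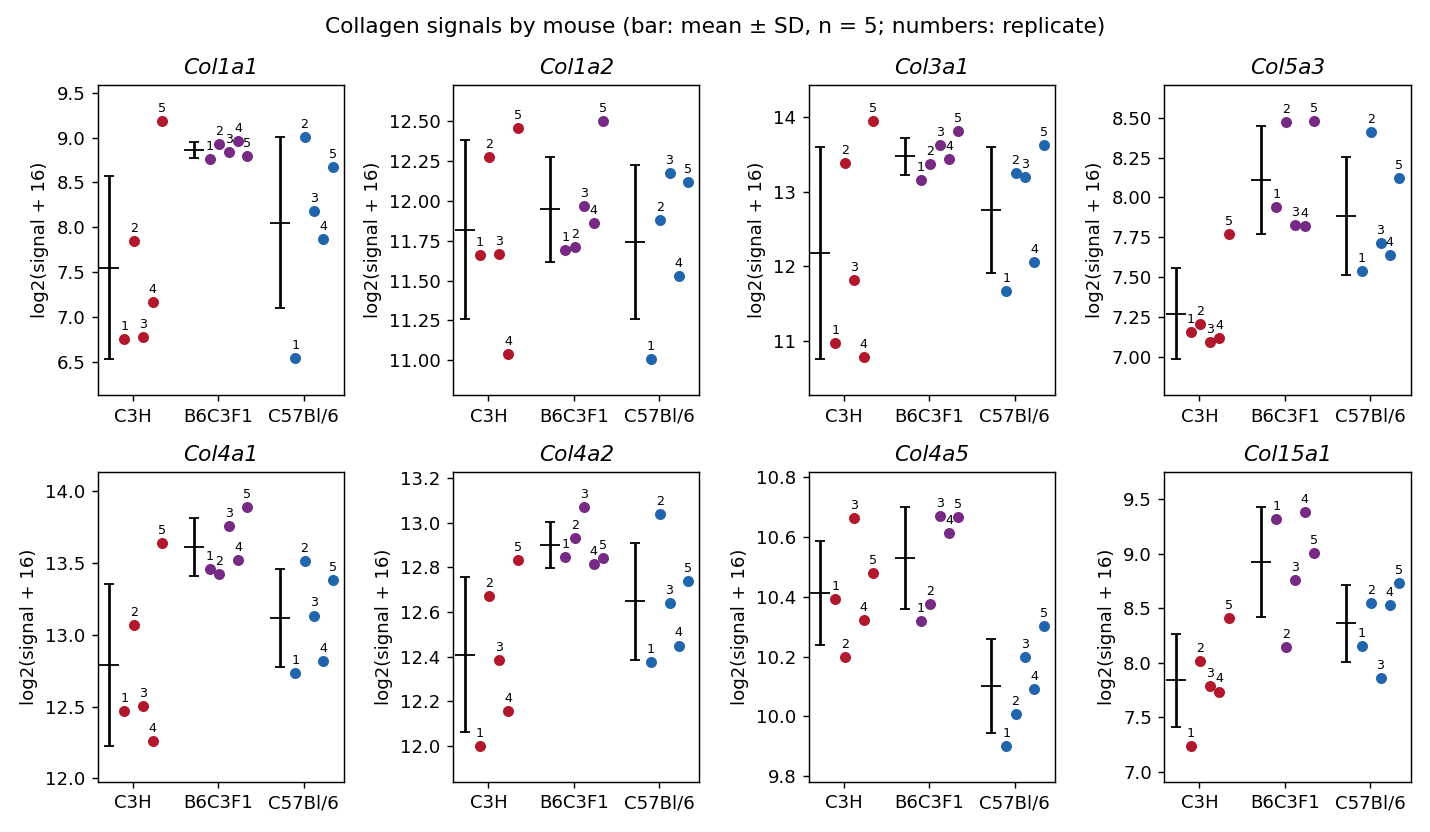
Signal of 8 collagen genes in each mouse, as log2(signal + 16) on the vertical axis, for the 3 strains on the horizontal axis; points are mice numbered by replicate, and the black bar is the mean ± SD of 5 mice. Col1a1 and Col3a1 points are tightly packed in B6C3F1 and spread over several log2 units in C3H, where replicate 5 is highest.

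Type V collagen chains help to set the diameter of fibrils. The lowest, median and highest Col5a1 values were 9.17, 10.08 and 10.72 in C3H, 10.09, 10.38 and 10.55 in B6C3F1 and 8.50, 9.73 and 10.14 in C57Bl/6. All C57Bl/6 mice but replicate 5 lay below every B6C3F1 mouse, and the difference of 0.86 ± 0.30 (SE) between B6C3F1 and C57Bl/6 did not pass (limma adjusted p = 0.104). Col5a2 averaged 10.07 ± 0.59 in C3H, 10.72 ± 0.24 in B6C3F1 and 10.41 ± 0.43 in C57Bl/6 (SD, n = 5). Its 0.66 ± 0.23 (SE) difference between B6C3F1 and C3H likewise missed the threshold (limma adjusted p = 0.105), and passed without C3H replicate 2 (0.81, adjusted p = 0.0437) or C3H replicate 5 (0.82, adjusted p = 0.026).

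Col5a3, the third and less widespread type V chain, was the fibrillar gene that separated strains. It was at 7.16, 7.21, 7.09, 7.12 and 7.77 in C3H, at 7.94, 8.47, 7.83, 7.82 and 8.48 in B6C3F1 and at 7.54, 8.41, 7.72, 7.64 and 8.12 in C57Bl/6. No C3H mouse reached the lowest B6C3F1 mouse, and the B6C3F1 mean was 1.79-fold the C3H mean (log2 difference 0.84 ± 0.20 SE, limma adjusted p = 0.0169). That call was lost without B6C3F1 replicate 2 (0.75, adjusted p = 0.0543). Col5a3 was also lower in C3H than in C57Bl/6, by a log2 difference of -0.61 ± 0.20 (SE), or 0.65-fold (limma adjusted p = 0.0478), with C3H replicate 5 inside the C57Bl/6 range. The call against C57Bl/6 was lost on leaving out any 1 of 10 arrays (replicates 1 to 4 of C3H, 1, 3 and 4 of B6C3F1, and 2, 3 and 5 of C57Bl/6), with an adjusted p from 0.0511 to 0.124. The last fibrillar member, Col27a1, of cartilage and other developing tissues, ran the other way from the other 6: it averaged 7.45 ± 0.21 in C3H, 6.20 ± 0.85 in B6C3F1 and 7.04 ± 0.78 in C57Bl/6 (SD, n = 5). Its difference of -1.25 ± 0.38 (SE) between B6C3F1 and C3H did not pass (limma adjusted p = 0.0526), and a second Col27a1 probe set gave 0.44, the opposite sign.

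Of the 5 tested chains of type IV collagen, Col4a1 and Col4a2 were higher in B6C3F1 than in C3H, and Col4a3, Col4a4 and Col4a5 did not pass in that contrast. Col4a1, which with Col4a2 forms the widespread α1 and α2 network, was at 12.47, 13.07, 12.50, 12.26 and 13.64 in C3H, at 13.46, 13.43, 13.76, 13.52 and 13.89 in B6C3F1 and at 12.73, 13.51, 13.14, 12.82 and 13.38 in C57Bl/6. Among the C3H mice, replicate 5 alone entered the B6C3F1 range. Col4a1 was 1.77-fold higher in B6C3F1 than in C3H (log2 difference 0.82 ± 0.21 SE, limma adjusted p = 0.0202). Without B6C3F1 replicate 3 or 5, or C3H replicate 1, 3 or 4, the adjusted p was 0.0501 to 0.0661, at differences of 0.69 to 0.79. A second Col4a1 probe set showed 0.44 ± 0.21 (SE) for this contrast (adjusted p = 0.261 over all probe sets). The 2 sets also differed in sign between the inbred strains (C3H minus C57Bl/6 -0.33 and 0.25), where neither passed.

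Col4a2 was at 12.00, 12.67, 12.38, 12.16 and 12.83 in C3H, at 12.85, 12.93, 13.07, 12.81 and 12.84 in B6C3F1 and at 12.38, 13.04, 12.64, 12.45 and 12.74 in C57Bl/6. The B6C3F1 mice lay above all C3H mice but replicate 5, whose 12.83 fell just inside their range. Col4a2 was 1.41-fold higher in B6C3F1 than in C3H (log2 difference 0.49 ± 0.14 SE, limma adjusted p = 0.045). Leaving out any 1 of 10 arrays (all 5 of B6C3F1, replicates 1, 3 and 4 of C3H, and 3 and 5 of C57Bl/6) ended the call, with an adjusted p from 0.054 to 0.123.

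The α5 chain Col4a5, which is part of a type IV network restricted to fewer tissues and is X-linked, varied little between mice. It was at 10.39, 10.20, 10.66, 10.32 and 10.48 in C3H, at 10.32, 10.37, 10.67, 10.61 and 10.67 in B6C3F1 and at 9.90, 10.01, 10.20, 10.09 and 10.30 in C57Bl/6. B6C3F1 mice were all above the C57Bl/6 mice, by 1.35-fold (log2 difference 0.43 ± 0.11 SE, limma adjusted p = 0.0352). The call ended without B6C3F1 replicate 3, 4 or 5 or C57Bl/6 replicate 1, 3 or 4 (adjusted p 0.0521 to 0.101), and a second Col4a5 probe set gave 0.22 (adjusted p = 0.364 over all probe sets). C3H was 0.31 ± 0.11 (SE) above C57Bl/6 for Col4a5, short of the threshold (limma adjusted p = 0.0642), and above it without C3H replicate 2 (adjusted p = 0.0407) or C57Bl/6 replicate 5 (adjusted p = 0.0449). Col4a3 and Col4a4, the partners of Col4a5 in that network, passed in no strain contrast. Col4a4 averaged 7.74 ± 0.87, 8.57 ± 0.50 and 8.18 ± 0.41 in C3H, B6C3F1 and C57Bl/6 (SD, n = 5), and its B6C3F1 minus C3H difference was 0.83 ± 0.33 (SE, limma adjusted p = 0.154). Col4a3, the α3 chain, had a difference of 0.41 ± 0.40 (SE) in that contrast (limma adjusted p = 0.639).

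Col15a1, which encodes a proteoglycan collagen that links basement membranes to the fibrils beside them, gave the largest of the 4 differences called between B6C3F1 and C3H. It was at 7.24, 8.02, 7.79, 7.74 and 8.41 in C3H, at 9.32, 8.15, 8.76, 9.38 and 9.01 in B6C3F1 and at 8.15, 8.55, 7.86, 8.53 and 8.73 in C57Bl/6. Replicate 2 of B6C3F1, at 8.15, was the 1 B6C3F1 mouse inside the C3H range. The B6C3F1 mean was 2.12-fold the C3H mean (log2 difference 1.08 ± 0.24 SE, limma adjusted p = 0.00786), and the call held on leaving out each of the 15 arrays in turn. Col18a1, the related precursor of endostatin, averaged 8.52 ± 0.43 in C3H, 8.86 ± 0.23 in B6C3F1 and 8.29 ± 0.45 in C57Bl/6 (SD, n = 5) and was called nowhere.

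The type VI chains Col6a1 and Col6a2, of the beaded filament, were low in the same inbred mice as Col3a1. Col6a1 was at 10.35, 11.52, 10.69, 10.07 and 11.58 in C3H, at 11.38, 11.58, 11.60, 11.54 and 11.56 in B6C3F1 and at 10.18, 11.43, 11.01, 10.70 and 11.34 in C57Bl/6. The 5 B6C3F1 mice spanned 1.17-fold, against 2.84-fold in C3H and 2.38-fold in C57Bl/6. Col6a2 averaged 10.75 ± 0.76, 11.57 ± 0.19 and 10.94 ± 0.62 in the same order of strains (SD, n = 5). The B6C3F1 minus C3H differences were 0.69 ± 0.25 (SE) for Col6a1 and 0.82 ± 0.29 for Col6a2 (limma adjusted p = 0.123 and 0.108). Both passed without C3H replicate 5 (0.87 and 1.06, adjusted p = 0.031 and 0.0196). Col8a1, a network collagen of vessel walls, and Col14a1, a fibril-associated collagen, overlapped between all strains: their B6C3F1 minus C3H differences were 0.49 (95% interval -0.09 to 1.08) and 0.13 (-0.29 to 0.54). A second Col14a1 probe set was higher in C3H than in C57Bl/6 by 0.84 ± 0.22 (SE) (limma adjusted p = 0.0142 over all probe sets), where the brighter set gave 0.26.

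The third type VI chain tested, Col6a3, averaged 10.41 ± 0.70 in C3H, 10.86 ± 0.34 in B6C3F1 and 10.08 ± 0.57 in C57Bl/6 (SD, n = 5). Its difference between B6C3F1 and C57Bl/6, 0.78 ± 0.29 (SE), did not pass (limma adjusted p = 0.13). Col7a1, of the anchoring fibrils that fasten epithelia, was at 5.84 ± 0.45, 6.13 ± 0.40 and 6.59 ± 0.22 in C3H, B6C3F1 and C57Bl/6, and Col23a1, a transmembrane collagen, at 6.66 ± 0.22, 6.17 ± 0.85 and 5.76 ± 0.78. These gave the lowest and the highest C3H minus C57Bl/6 difference of the 12 tested members of the other types, -0.75 ± 0.29 (SE) and 0.90 ± 0.40, and neither passed (limma adjusted p = 0.0904 and 0.149). Col16a1, a fibril-associated collagen, differed by 0.33 or less between any pair of strains. Col6a4, Col13a1, Col20a1 and Col22a1 were within 0.34 of each other between strain means. The 16 dim members had means from 4.81 (Col24a1) to 5.73 (Col26a1). Their highest strain mean was in B6C3F1 for 8, in C57Bl/6 for 6 and in C3H for 2, and they lay below the limit for testing.

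Counted over the 26 tested members, 1 was called between C3H and C57Bl/6 (Col5a3, lower in C3H), where 15.7% of all genes tested were called in either direction and 8.4% lower. Between B6C3F1 and C57Bl/6, 1 was called (Col4a5, higher in B6C3F1), against 3.83% of all genes in either direction and 2.06% higher. Between B6C3F1 and C3H, 4 were called, all higher in B6C3F1 (Col15a1, Col5a3, Col4a1 and Col4a2), against 6.2% of all genes in either direction and 3.58% higher, with 0 members lower against 2.62%. The count of 4 became 2 without B6C3F1 replicate 2 or 3 or C3H replicate 1, 3 or 4, and 9 without C3H replicate 5, when Col1a1, Col3a1 (1.74, adjusted p = 0.0144), Col5a2, Col6a1 and Col6a2 joined. Over all genes the 813 calls became 591 to 648 on leaving out 1 of those 5 mice and 1117 without C3H replicate 5. The B6C3F1 mean was also set against the midpoint of both inbred means. There limma called 0 of 26 members and 0.633% of all genes, and 15 members had an unadjusted p under 0.05. Without C3H replicate 5, 3 members were called against the midpoint (Col1a1, Col4a1 and Col15a1), and 1 without B6C3F1 replicate 2 (Col15a1) or replicate 5 (Col27a1, lower).

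Both technical measures were also entered as covariates. With the poly-A control signal 0 of the 4 members were called between B6C3F1 and C3H, and the calls over all genes went from 813 to 381 of 13111: the member differences were 0.96 for Col15a1, 0.67 for Col5a3, 0.56 for Col4a1 and 0.34 for Col4a2, with limma adjusted p from 0.0696 to 0.314. The poly-A signal was at 10.34 in C3H replicate 4, while its part in the collagen differences was not tested beyond that fit. With the Gapdh ratio 7 members and 761 of all genes were called. All 7 were higher in B6C3F1: Col4a1, Col5a3 and Col15a1 as before, with Col3a1 (1.80, adjusted p = 0.0453), Col5a2, Col8a1 and Col4a4, while Col4a2 lost its call (0.53, adjusted p = 0.0635). In the apex, a bulk tissue, fewer cells of a type and less RNA per cell cannot be told apart.

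**Figure D2:**
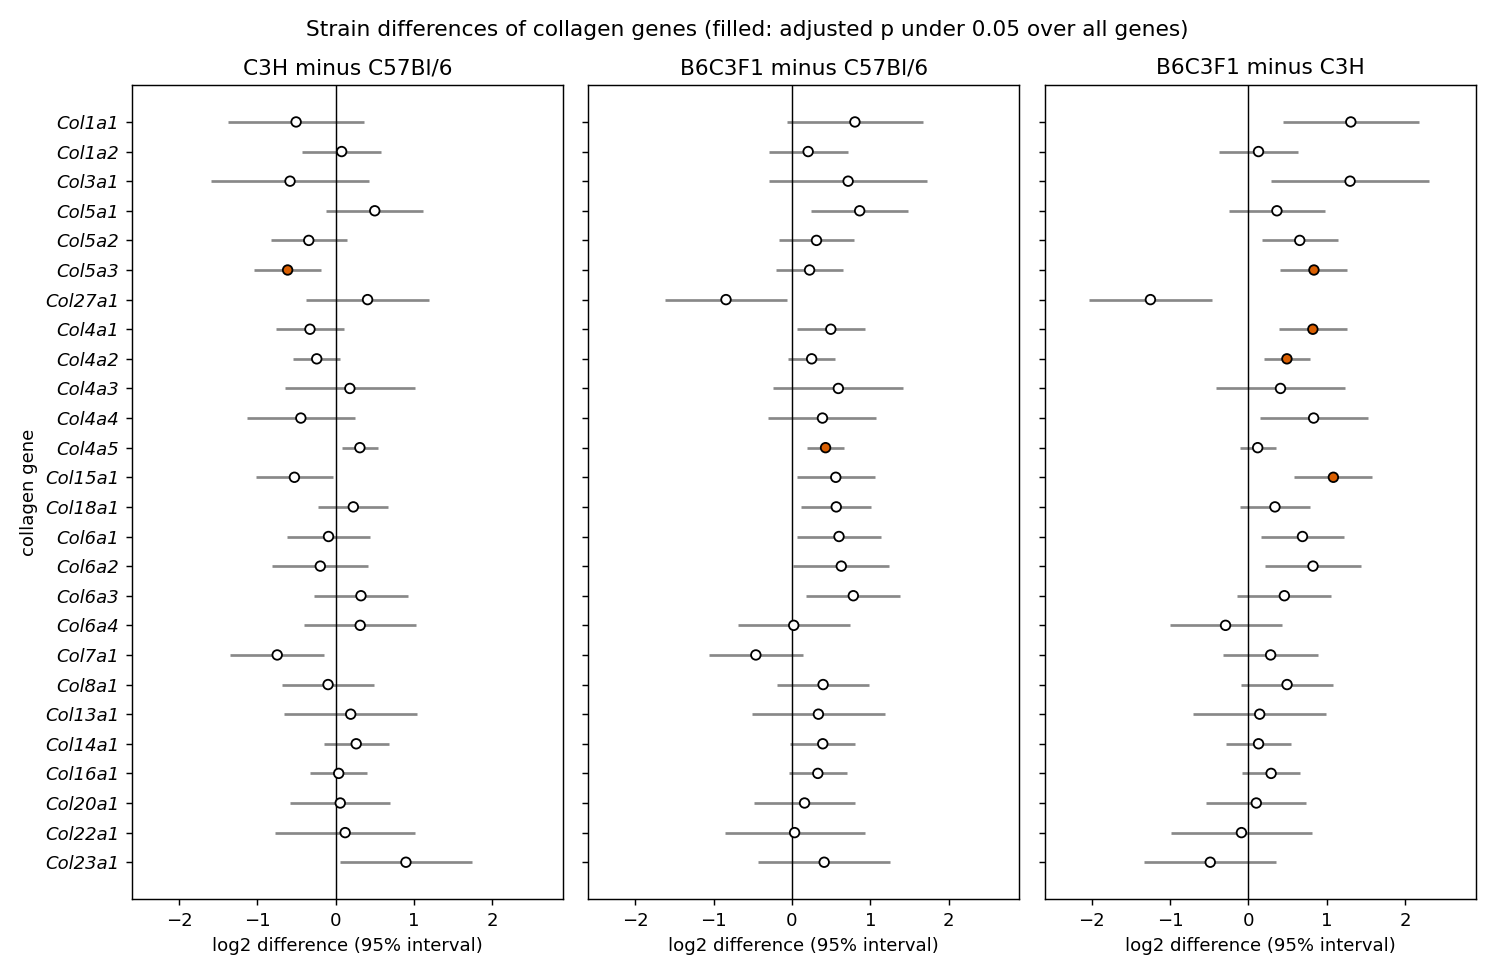
Log2 difference between strains, with its 95% interval, for the 26 tested collagen genes in 3 panels, 1 for each pair of strains; filled points passed an adjusted p of 0.05 over all genes. In the B6C3F1 minus C3H panel, 4 points are filled and 22 of 26 lie above 0.

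By strain mean, B6C3F1 was the highest of the 3 strains for 21 of the 26 tested members and for 29 of all 42, where 32.0% of all genes tested had their highest mean in B6C3F1. This held for 7 of 7 basement membrane members and for 6 of 7 fibrillar members, all but Col27a1. C3H was highest for 4 (Col6a4, Col22a1, Col23a1 and Col27a1) and C57Bl/6 for Col7a1, the anchoring fibril collagen. The median B6C3F1 minus C57Bl/6 difference was 0.40 for tested members (0.35 over all 42) and 0.01 for all genes tested. For B6C3F1 minus C3H the medians were 0.39 (0.35 over all 42) and 0.03, and for C3H minus C57Bl/6 0.05 (-0.09 over all 42) and -0.02. Since members vary together between mice, such counts do not stand for so many separate observations. Both contrasts of B6C3F1 share the B6C3F1 arrays. The counts of the highest strain use the brightest probe set of each gene. Of 15 members with 2 or more probe sets above the dim limit, all such sets had 1 sign for 11 in B6C3F1 minus C57Bl/6. The number was also 11 in B6C3F1 minus C3H, and 9 in C3H minus C57Bl/6.

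**Figure D3:**
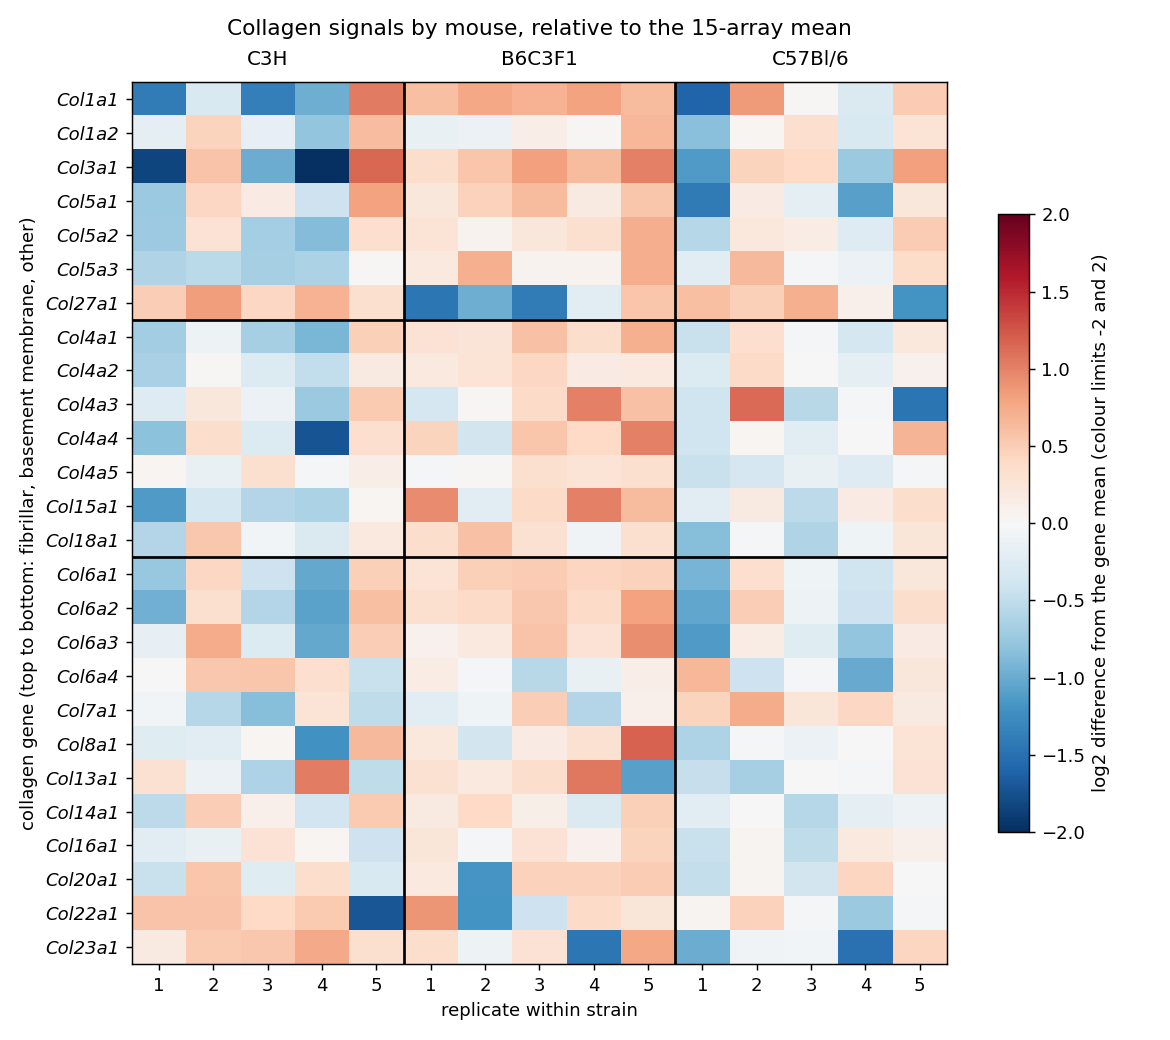
Each of the 26 tested collagen genes (rows, grouped as fibrillar, basement membrane and other) in each of the 15 mice (columns, by strain and replicate), as the log2 difference from the gene's mean over 15 arrays, with colour limits at -2 and 2. C3H replicates 1, 3 and 4 and C57Bl/6 replicates 1 and 4 are low over most fibrillar rows, and the 5 B6C3F1 columns are high.

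How far mice of a strain lay apart is given here by the SD of 5 mice. Over the 7 tested fibrillar members the median SD came to 0.59 for C3H, 0.25 for B6C3F1 and 0.75 for C57Bl/6, where all genes tested had 0.26, 0.23 and 0.24. The SD of Col3a1 in C3H was larger than that of 99.9% of genes tested, and that of Col1a1 larger than 98.7%. In B6C3F1 the Col1a1 SD exceeded that of just 6.77% of genes and the Col6a1 SD that of 7.2%. A second Col1a1 probe set had an SD of 0.56 in B6C3F1, where the brightest had 0.09, so this narrow spread depends on the probe set. For 13 of 26 members the SD was lowest in B6C3F1, beside 39.3% of all genes tested. The equality of spread was not tested.

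Some mice were at the same end of their strain's range for many members. The 6 fibrillar members without Col27a1 averaged -0.91, 0.14, -0.62, -0.95 and 0.66 from their 15-array means in C3H replicates 1 to 5, and -0.96, 0.40, 0.12, -0.47 and 0.45 in C57Bl/6. In B6C3F1 all 5 mice were above 0, from 0.25 to 0.72. C3H replicate 5 was the highest C3H mouse for 14 of 26 members, and C57Bl/6 replicate 1 the lowest C57Bl/6 mouse for 16. C3H replicate 4, lowest in its strain for 10 members, had the highest poly-A control signal of all arrays.

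Chains that build 1 molecule or 1 fibril were compared through their deviations from the strain mean over the 15 mice, by a two-sided permutation test within strains. The pairs were chosen with earlier results of these data known. Of 8 pairs listed, 5 had both members above the dim limit, and p-values were adjusted over these 5. Col6a1 and Col6a2 were the closest (Pearson r = 0.98, permutation adjusted p = 0.00015; Spearman rho = 0.96, permutation adjusted p = 0.0002; r = 0.97 without the 2 mice farthest from the Col6a1 median). Col4a1 and Col4a2, the head to head pair printed above, had r = 0.87 (permutation adjusted p = 0.00202) and rho = 0.85 (permutation adjusted p = 0.00289), and r = 0.78 without 2 mice.

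The fibrillar pairs were next. Col1a1 and Col3a1, which lie in the same fibrils, had r = 0.84 (permutation adjusted p = 0.00277) and rho = 0.92 (permutation adjusted p = 0.00289), with r = 0.75 without 2 mice. For Col5a1 and Col5a2, r was 0.82 (permutation adjusted p = 0.00277), rho 0.87 (permutation adjusted p = 0.0028) and r without 2 mice 0.77. Col1a1 and Col1a2, subunits of type I collagen, had the lowest r, 0.72 (permutation adjusted p = 0.0137), with rho = 0.73 (permutation adjusted p = 0.00556) and r = 0.50 without 2 mice, and their adjusted p reached 0.103 without C57Bl/6 replicate 1. With 5 mice a strain, r within 1 strain is a description only. Within B6C3F1, where the deviations spanned little, it ran from -0.34 (Col1a1 and Col1a2) through -0.06 (Col1a1 and Col3a1) to 0.45 (Col6a1 and Col6a2), so the relations were not seen in that strain alone. Within C3H it ran from 0.75 to 0.99 over the 5 pairs, and within C57Bl/6 from 0.85 to 1.00.

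**Figure D4:**
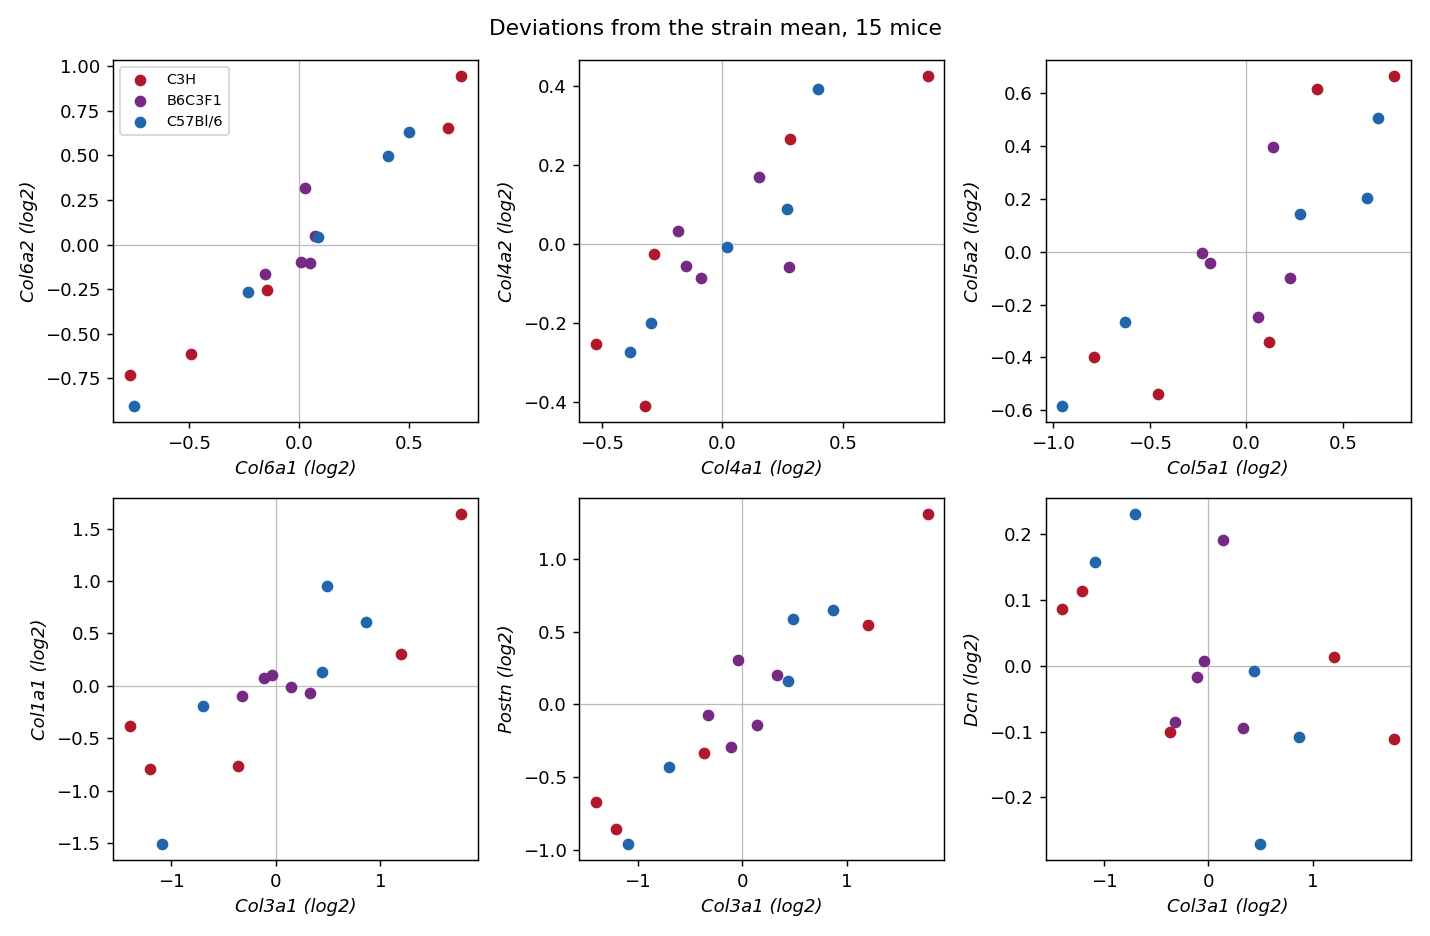
Deviation of each of the 15 mice from its strain mean (log2) for 6 pairs of genes, coloured by strain. Col6a1 and Col6a2 lie close to a line (r = 0.98), Postn rises with Col3a1 (r = 0.95), and Dcn does not.

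As a description over the same 15 deviations, the members whose signal was most like Col3a1 were Col6a1 and Col6a2 (both r = 0.96), Col5a2 (0.95), Col4a1 (0.94), Col5a1 (0.90) and Col1a2 (0.89). Col15a1 (0.47), Col4a5 (0.24) and Col27a1 (-0.10) followed Col3a1 less, and Col22a1, a junctional collagen, had the lowest r (-0.38). Over all genes tested the median r with Col3a1 was 0.03, and the 5th and 95th percentiles were -0.60 and 0.65. All genes of an array share its labelling and scaling.

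A further 6 relations of Col3a1 were tested in the same way, with genes chosen after their values were seen. Postn and Dcn had the highest and the lowest r with Col3a1 of 9 fibroblast markers, and Mrc1 the highest of 5 macrophage markers. The adjustment over 6 relations does not allow for that choice, so the p-values of these genes are a description only. Postn, a matrix protein of activated fibroblasts, had r = 0.95 (permutation adjusted p = 0.00078; rho = 0.94, permutation adjusted p = 0.00192; r = 0.92 without 2 mice). Its lowest, median and highest values were 8.92, 9.44 and 11.08 in C3H, 10.20, 10.42 and 10.80 in B6C3F1 and 9.00, 10.11 and 10.60 in C57Bl/6, with the F1 range again the narrowest. Mrc1, a macrophage receptor that takes up glycoproteins and collagen, had r = 0.85 (permutation adjusted p = 0.0129; rho = 0.79, permutation adjusted p = 0.0384; r = 0.78 without 2 mice). Dcn, the fibroblast proteoglycan decorin, did not follow Col3a1 (r = -0.55, permutation adjusted p = 0.0724; rho = -0.59, permutation adjusted p = 0.098; r = -0.55 without 2 mice). The poly-A control signal had r = -0.61 with Col3a1 (permutation adjusted p = 0.0785; rho = -0.49, permutation adjusted p = 0.171; r = -0.44 without 2 mice). The Gapdh ratio had r = -0.43 (permutation adjusted p = 0.214; rho = -0.30, permutation adjusted p = 0.378; r = -0.13 without 2 mice), and the array median r = -0.24 (permutation adjusted p = 0.405; rho = -0.14, permutation adjusted p = 0.645; r = -0.19 without 2 mice).

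Genes that fold and modify collagen chains in the endoplasmic reticulum were counted in the same way. Of 16 tested, C3H was higher than C57Bl/6 for 1 and lower for 3, where 7.25% of all genes were higher and 8.4% lower. P4hb, the β subunit of prolyl 4-hydroxylase, was lower in C3H by -0.64 ± 0.08 (SE, limma adjusted p = 6.34e-06), and P3h4, a partner in collagen hydroxylation, by -1.18 ± 0.12 (4.1e-07). Serpinh1, the collagen chaperone HSP47, was lower by -0.77 ± 0.25 (limma adjusted p = 0.0426), while Crtap, of the prolyl 3-hydroxylation complex, was higher by 0.44 ± 0.09 (0.00246). In B6C3F1 minus C57Bl/6, P4hb (-0.45), P3h4 (-0.76) and Crtap (0.47) passed. That was 1 of 16 higher and 2 lower, beside 2.06% and 1.77% of all genes. In B6C3F1 minus C3H only P3h4 passed (0.42, limma adjusted p = 0.0364). This 1 of 16 is near the 6.2% of all genes called, and the call was lost in 13 of 28 alternative runs. None of 8 genes of procollagen processing and crosslinking passed in any pair of strains, with Pcolce, the enhancer of C-propeptide removal, at 0.69 ± 0.21 (SE) in B6C3F1 minus C57Bl/6 (limma adjusted p = 0.0725), Loxl1, a crosslinking oxidase, at 0.56 ± 0.18 (0.0771), and Bmp1 and Lox at 0.19 and -0.16.

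Of 7 collagen receptor and uptake genes, 1 passed, a share near the 15.7% of all genes called in that contrast: Ddr1, a collagen-activated tyrosine kinase, was 1.23 ± 0.22 (SE) higher in C3H than in C57Bl/6 (limma adjusted p = 0.000533). Ddr2, Itgb1 and Mrc2 passed in no contrast. Among 13 basement membrane partners, Pxdn, the peroxidase that crosslinks type IV collagen, was 1.04 ± 0.20 (SE) higher in B6C3F1 than in C3H (limma adjusted p = 0.00269), in the same contrast as Col4a1 and Col4a2, and 0.75 above the midpoint (adjusted p = 0.0486). The laminin chain Lama2 was -0.35 lower in B6C3F1 than in C3H (limma adjusted p = 0.0352) and 0.36 higher in C3H than in C57Bl/6 (0.0135). Lamb3 was 0.93 higher in C3H than in C57Bl/6 (limma adjusted p = 0.0488). In B6C3F1 minus C3H, 1 of 13 was higher and 1 lower, beside 3.58% and 2.62% of all genes. In C3H minus C57Bl/6, 2 of 13 were called, near the 15.7% of all genes called in either direction. Transforming growth factor beta signalling is a main inducer of fibrillar collagens. Of 14 of its genes, Smad4 (0.41), Smad7 (0.52) and Ccn2 (0.91) were higher in C3H than in C57Bl/6 (3 of 14, beside 7.25% of all genes). Between B6C3F1 and C3H, Smad4 was the 1 called, lower in B6C3F1 (-0.38, limma adjusted p = 0.0296), beside 2.62% of all genes lower.

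Markers of the cells that make collagen gave these values beside the collagen differences. Of 9 fibroblast markers, 3 were higher in C3H than in C57Bl/6 (Tcf21 0.76, Lum 0.57 and Dcn 0.41, beside 7.25% of all genes), with Gsn at -0.26 and Postn at -0.18 and not called. In the same list 2 were higher in B6C3F1 than in C57Bl/6 (Tcf21 and Lum, beside 2.06% of all genes). There Gsn (-0.39), Fbln1 (-0.32) and Pdgfra (-0.05) were lower and not called, and the list median was 0.52. None of the 9 fibroblast markers passed between B6C3F1 and C3H. The log2 of their summed signal ranged from 15.96 to 16.34 in C3H, 15.90 to 16.22 in B6C3F1 and 15.84 to 16.23 in C57Bl/6. For 8 endothelial markers it ranged from 13.17 to 13.76, 13.36 to 13.92 and 13.68 to 13.96. Of these 8, Cdh5, VE-cadherin, was the 1 called between B6C3F1 and C3H, beside 6.2% of all genes (0.70 ± 0.15 SE higher, limma adjusted p = 0.00666). Pecam1 was at -0.01 and Egfl7 at -0.23 in that contrast. Cdh5 (-0.56) and Esam (-0.45) were lower in C3H than in C57Bl/6 (2 of 8, beside 8.4% of all genes). Egfl7 (-0.35) was lower in B6C3F1 than in C57Bl/6 (1 of 8, beside 1.77%). Cdh5 (0.14) and Emcn (0.06) were higher there and not called, and the list median was -0.25. The pericyte gene Rgs5, the 1 of 7 smooth muscle and pericyte markers to pass, was 0.36 higher in B6C3F1 than in C3H (limma adjusted p = 0.00859). All others of the list lay below 0 in that contrast, from -0.16 (Tagln) to -0.02 (Pdgfrb), and were not called. Rgs5 was -0.40 lower in C3H than in C57Bl/6, where the others ran from -0.35 (Tagln) to 0.35 (Pdgfrb), with a list median of 0.05. Beside this 1 of 7, 6.2% and 15.7% of all genes were called in either direction in these contrasts, and the second share is near it. Alas2, the red cell gene tested, was -0.79 lower in C3H than in C57Bl/6 (limma adjusted p = 0.0157). The summed signal of 5 macrophage markers ranged from 12.40 to 13.15 in C3H, 12.97 to 13.24 in B6C3F1 and 12.57 to 13.16 in C57Bl/6. Of these 5, Csf1r was the 1 called between B6C3F1 and C3H, beside 6.2% of all genes (0.50 higher, limma adjusted p = 0.0331). Cd14 was at -0.05 in that contrast. Between C3H and C57Bl/6, Cd68 was higher in C3H (0.77) and Adgre1 lower (-0.62), each 1 of 5, beside 7.25% and 8.4% of all genes. The median r with Col3a1 over 15 deviations was 0.78 for macrophage, 0.27 for fibroblast, -0.03 for endothelial and -0.03 for cardiomyocyte markers. Both adipocyte markers analysed were below the dim limit, and none of 4 epicardium, 2 Schwann or 3 cartilage markers passed. The part of these cells in the collagen differences was not tested.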

How the data were processed

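RNA of 15 hearts was measured on Affymetrix mouse arrays (3 strain labels, 5 mice each). The deposited values are log2 signals that the authors made with MAS5, per the submitters' processing notes (version not given in the sources used here). That the values are log2 and scaled per array was read from the values. No detection calls were used. Gene symbols came from the platform annotation in GEO: of 45096 probe sets, 34940 had 1 symbol, 932 several, 9160 none, and 64 were controls.

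Values were turned to log2(signal + 16), which shrinks differences of dim genes, and each gene was given by its probe set of highest mean. Genes with a mean below the 40th percentile of probe sets (5.74) were left out. limma 3.58.1 (R 4.3.3) fitted all 15 arrays over 13111 genes, with an intensity trend and Benjamini-Hochberg adjustment, and a call is an adjusted p under 0.05. No array pair was identical. Precision is limited by how many arrays there were. The test was checked on simulated data. Chain pairs used 100000 permutations within strains. Members, lists and pairs were chosen with earlier results of these data known. Named members are all those called between strains and 13 fixed ones (Col1a1, Col1a2, Col3a1, Col5a1, Col5a2, Col4a1, Col4a2, Col6a1, Col6a2, Col8a1, Col14a1, Col15a1 and Col18a1), and up to 4 genes of each list by adjusted p; others named were singled out after their values were seen. Alternatives covered the offset, filter, scaling, probe sets, variance model, samples in the fit, covariates, the replicate block and each array left out. RefSeq promoter windows were matched by symbol; Col1a1 was not among those shown. Some genes of the lists are not reported here.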

Additional observations from a re-analysis of the deposited data

Results flagged for a closer look

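In 4 of 78 groups of 5 mice, over the 26 tested collagen genes and 3 strains, 1 mouse lay far from the other 4 by Dixon's test; chance alone marks about 1 in 20 groups. Col5a3 was highest in C3H replicate 5, at 7.77, with the nearest C3H mouse at 7.21. Col22a1 was lowest in the same mouse, C3H replicate 5, at 4.95, with the next at 7.07. Col6a1 was lowest in B6C3F1 replicate 1, at 11.38, with the next at 11.54, within a narrow group. Col20a1 was lowest in B6C3F1 replicate 2, at 5.84, with the next at 7.22. Values are log2(signal + 16).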

How the results depend on the processing

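The count of collagen genes called was small, and it moved with the processing. For C3H minus C57Bl/6 the count of 1 became 0 with an offset of 64, with no filter on dim probe sets and with quantile normalization. It was also 0 with only the groups of the contrast in the fit, and with every probe set tested, counting the brightest set of each gene. In that last run a second Col14a1 probe set passed (0.84, limma adjusted p = 0.0142). The count was 2 with either technical covariate (the Gapdh ratio or the mean of the poly-A controls). In that contrast the 1 call was another gene with each array centred on its median (Col4a5, higher in C3H) and without the intensity trend (Col7a1, lower), and with the poly-A covariate the 2 were Col5a1 and Col7a1, with Col5a3 lost (-0.45, adjusted p = 0.226). For B6C3F1 minus C57Bl/6 the count of 1 became 0 with each array centred on its median and without the intensity trend. For B6C3F1 minus C3H the count of 4 became 2 without the intensity trend, 7 with the Gapdh covariate and 0 with the poly-A covariate. Its split of 4 higher and 0 lower became 4 and 1 with quantile normalization and 3 and 1 with centring, the lower gene being Col27a1; centring moved the C3H minus C57Bl/6 median of all genes from -0.02 to 0.08. Leaving out each array in turn gave 0 to 2 calls for C3H against C57Bl/6, 0 to 1 for B6C3F1 against C57Bl/6, 2 to 9 for B6C3F1 against C3H and 0 to 3 for B6C3F1 against the midpoint. The correlated chain pairs numbered 5 in each of 21 alternative runs but 1, without C57Bl/6 replicate 1, which gave 4. Those runs covered the offset, the scaling, the probe sets, the Gapdh covariate and each array left out. The pairs were not run with the poly-A covariate. No direction of a named gene that was called turned in any alternative run; of 1260 collagen values, 52 lost and 23 gained a call. Of 4182 values of list genes, 125 lost and 67 gained a call: 14 of the 32 list calls between strains held in every alternative run and 5 were lost in more than 10 of 28 (Egfl7 and Lama2 in a contrast of B6C3F1 each, Lamb3, P3h4 in B6C3F1 minus C3H, and Serpinh1). The fit of the midpoint with only its groups is the main one and was not run again. The cause of these changes was not tested.

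With the replicate number of the labels as a block, the counts were 2, 3, 9 and 2 for these contrasts in that order. Over all 13111 genes tested, deviations of same-numbered mice correlated from -0.06 to 0.13. Of 15 such pairs 2 passed 0.1, and 4 of 15 arrays correlated best with their own number. These values cover all genes and cannot decide the matter for collagens. For the 6 fibrillar members without Col27a1, replicates 1 and 4 were lowest and replicates 2 and 5 highest in both C3H and C57Bl/6. Whether the numbers pair the mice for collagen genes was not tested.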
